A study of Mus musculus with 24 samples.

Results

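The 51 genes described here are the Wnt ligands, R-spondins, Frizzled receptors, co-receptors, secreted inhibitors, nuclear effectors and feedback targets of the mouse, taken from 19937 genes measured on Affymetrix Gene 1.0 ST arrays. Genes were chosen by symbol: every numbered Wnt, Fzd, Dkk1 to Dkk4, Sfrp1 to Sfrp5 and Rspo1 to Rspo4 gene, plus Wif1, Lrp5, Lrp6, Axin2, Lef1, Tcf7l1, Tcf7l2, Nkd1, Nkd2 and Ctnnb1. They comprised 19 ligands, 4 R-spondins, 10 receptors, 2 co-receptors, 9 secreted inhibitors, 4 effectors and 3 feedback targets. Only Wnt4 had more than 1 probe set. The RNA came from sorted mammary epithelial cells of mice that carry Lgr5-creERT2, a tamoxifen-inducible Cre driven from the Lgr5 locus. Control mice had only this allele, and mutant mice also carried a PIK3CA H1047R transgene, an activated form of the catalytic subunit of PI3 kinase. All animals were of mixed FVB/C57BL6 background and had received tamoxifen 4 weeks earlier. Each of the 24 arrays held amplified RNA of 250 cells from a pool of 2 to 3 estrus-synchronised mice, and 3 independent sortings gave 3 arrays in each of 8 groups.

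The 8 groups were set by genotype, surface antigens and GFP. Cells lacking CD45 were gated as basal (CD24 low, Sca1 negative) or luminal (CD24 high, Sca1 negative or Sca1 positive). Basal cells of each genotype were divided into GFP-negative and GFP-positive fractions. The luminal groups were GFP-negative in control mice and GFP-positive in mutant mice, so genotype and the GFP gate cannot be told apart in luminal cells. GFP marked Lgr5 in control cells, and Lgr5, the transgene or both in mutant cells, so the GFP-positive gate also differed between genotypes. Each genotype was represented by pools and not by single animals.

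Wnt ligands are secreted lipid-modified proteins that bind a Frizzled receptor together with Lrp5 or Lrp6. In the canonical branch this binding stabilises β-catenin, the product of Ctnnb1, which acts with Tcf and Lef proteins on target genes, among them the feedback inhibitors Axin2, Nkd1 and Nkd2. R-spondins raise the sensitivity of a cell to Wnt through Lgr4, Lgr5 and Lgr6, while Sfrp, Dkk and Wif1 proteins are secreted modulators, mostly inhibitors. In the mammary gland, Wnt4 is known as a ligand of progesterone-responsive luminal cells, Wnt5a as a non-canonical ligand, and basal cells as the compartment where Wnt-responsive cells such as those with Axin2 or Lgr5 are found.

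Marker genes were used to check the gates. Krt5, a basal keratin, had a mean log2 level of 11.53 to 11.92 in the 4 basal groups and 5.21 and 5.31 in the control luminal groups. In the mutant luminal groups Krt5 was 8.5 (Sca1-negative) and 6.48 (Sca1-positive), and the mean of the 13 basal markers there reached 7.36 in 1 array, against 5.81 to 6.03 in control luminal arrays. Krt18, a luminal keratin, lay between 12.59 and 12.77 in luminal and between 9.63 and 11.09 in basal groups. Ptprc, which encodes CD45, was at 4.06 to 4.35 in all groups, around the background level of 4.32, and Pdgfra, a defining fibroblast marker, at 4.03 to 4.20. Of the 14 fibroblast markers, however, 6 to 10 had a mean above background in each group (9 in control basal GFP-negative and 10 in control basal GFP-positive cells), and the mean over the list ran from 4.35 to 4.99 in the 24 arrays. Their part in the results was not tested. The background level is the 95th percentile of the mean levels of 1027 olfactory receptor genes. The 3 arrays of control basal GFP-positive cells differed from the rest: their values spread least (SD 1.68 to 1.77), correlated least with each other (r from 0.934 to 0.941) and were highest for dim genes (mean 3.90 to 3.97, against 3.80 to 3.82 in mutant basal GFP-positive arrays). Their part in the results that use them was not tested.

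Among the 51 genes, 39 had a mean above background in at least 1 group, 27 in all 8, and 12 in none. The 12 were the ligands Wnt1, Wnt2, Wnt2b, Wnt3, Wnt7a, Wnt8a and Wnt8b, along with Rspo2, Fzd4, Sfrp4, Dkk4 and Lef1. A gene in this range may be absent or below what these arrays resolve. Levels are log2 expression values and are compared between groups for 1 gene at a time, since probe sets of different genes do not share a scale. A moderated F test over the 8 groups (limma, p-values adjusted by Benjamini-Hochberg over all 19937 genes) called 24 of the 51 genes at an adjusted p under 0.05, beside 25.4% of all genes. By role, the calls comprised 9 of 19 ligands, 0 of 4 R-spondins, 4 of 10 receptors, 1 of 2 co-receptors, 4 of 9 secreted inhibitors, 4 of 4 effectors and 2 of 3 feedback targets. The widest ranges between the lowest and highest group means belonged to Sfrp1 (4.5 on the log2 scale), Fzd7 (4.13), Wif1 (3.77) and Dkk3 (3.34).

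**Figure D1:**
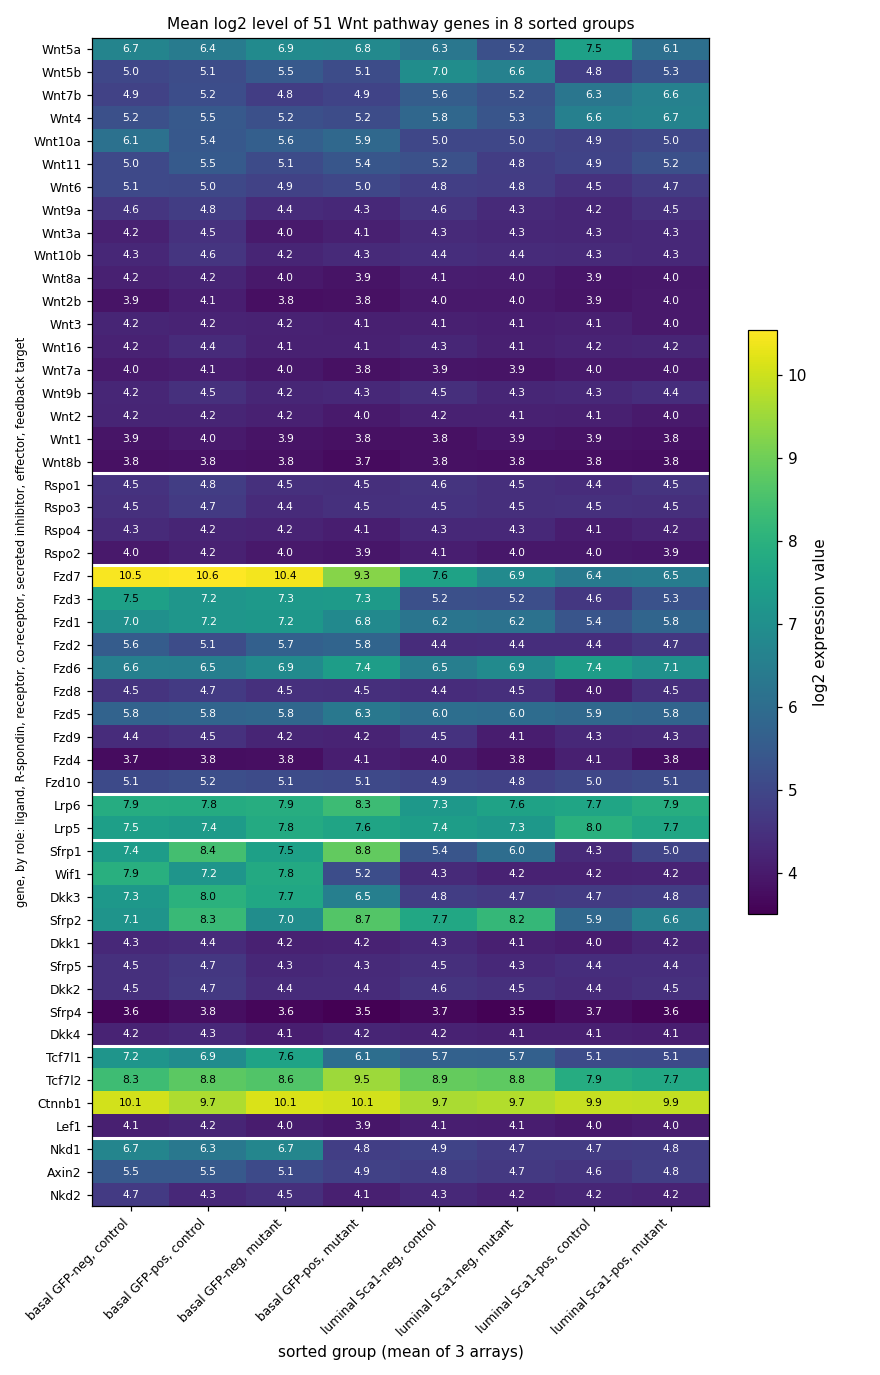
Mean log2 expression value (colour and printed number, n = 3 arrays) of each of the 51 genes (rows, ordered by role) in each of the 8 sorted groups (columns); colours compare groups within a row, not genes. Fzd7 falls from 10.6 in control basal GFP-positive cells to 6.4 in control luminal Sca1-positive cells, and most ligand rows stay near background in every group.

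The first question the groups allow is how the basal and luminal compartments of control glands differ. Against control basal GFP-negative cells, luminal Sca1-negative cells had 12 of the 51 genes called, 11 lower and 1 higher, beside 9.83% of all genes called (4.9% lower and 4.93% higher). Luminal Sca1-positive cells had 14 called, 12 lower and 2 higher, beside 13.1% of all genes (5.77% lower and 7.35% higher). Both comparisons use the same 3 basal arrays. The median difference over the 51 genes was -0.04 and -0.13 on the log2 scale, and over all genes 0.02 and -0.03. For 6 genes (Fzd7, Fzd3, Wif1, Dkk3, Sfrp1 and Wnt10a) all 12 basal arrays of both genotypes lay above all 12 luminal arrays, a pattern that 1.83% of all genes showed. The gap was narrow for Wif1 (lowest basal array 4.46, highest luminal 4.45) and Wnt10a (5.24 and 5.23). In RNA from sorted bulk samples, fewer cells of a type and less RNA per cell cannot be told apart.

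Fzd7, a Frizzled receptor, had the lowest p of the receptors in both comparisons. Its log2 level was 10.73, 10.47 and 10.27 in the control basal GFP-negative arrays, 7.25, 7.24 and 8.20 in control luminal Sca1-negative arrays, and 6.03, 6.61 and 6.60 in control luminal Sca1-positive arrays. The luminal arrays thus lay at least 2 log2 units under the basal ones. The log2 difference from basal cells was -2.93 ± 0.28 (SE, adjusted p 8.3e-07) in Sca1-negative and -4.08 ± 0.28 (adjusted p 6.64e-09) in Sca1-positive luminal cells, or 7.60-fold and 16.9-fold lower.

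Fzd3 and Fzd1 are receptors with lower luminal means in the same order as Fzd7, lowest in Sca1-positive cells. Fzd3 was at 7.62, 7.92 and 7.03 in control basal GFP-negative arrays, at 4.67, 5.36 and 5.61 in Sca1-negative and at 4.69, 4.66 and 4.57 in Sca1-positive control luminal arrays. Its log2 differences were -2.31 ± 0.45 (adjusted p 0.00227) and -2.88 ± 0.45 (adjusted p 0.000187). Fzd1 was called in Sca1-positive luminal cells, where its 3 arrays read 5.42, 5.38 and 5.31 against 6.61, 7.19 and 7.36 in basal cells (log2 difference -1.69 ± 0.27, adjusted p 0.000265). In Sca1-negative luminal cells the Fzd1 difference was -0.82 ± 0.27 with an adjusted p of 0.0725. Fzd2 averaged 5.56 in basal and 4.4 and 4.41 in luminal cells, but its basal arrays ran from 5.06 to 6.36 and neither difference passed the test (adjusted p 0.123 and 0.106). Fzd6 averaged 7.43 in luminal Sca1-positive and 6.57 in basal cells (adjusted p 0.078). Fzd5, Fzd8, Fzd9 and Fzd10 passed neither test, and Fzd8 averaged 4.55 in basal and 4.4 and 4.04 in luminal cells.

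The co-receptors had narrower ranges. Lrp6 averaged 7.86 in basal GFP-negative, 7.26 in Sca1-negative and 7.65 in Sca1-positive control luminal cells, and the first of these differences was called (-0.61 ± 0.19, adjusted p 0.0468). Lrp5 had a range of 0.70 over the 8 group means and was not called by the F test (adjusted p 0.754), with arrays of 1 group as far apart as 6.73 and 8.62.

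Of the secreted inhibitors, Wif1, Dkk3 and Sfrp1 were each high in basal and low in luminal cells. Wif1, whose product binds Wnt proteins directly, read 8.07, 7.74 and 8.01 in control basal GFP-negative arrays and between 4.13 and 4.41 in the 6 control luminal arrays. The luminal group means, 4.35 and 4.17, lie at the background level, and the log2 differences were -3.59 ± 0.35 (adjusted p 1.22e-06) and -3.77 ± 0.35 (adjusted p 3.76e-07). Dkk3, a divergent member of the Dickkopf family, read 7.62, 6.16 and 8.02 in basal arrays and 4.61 to 4.85 in control luminal arrays. The Dkk3 differences were -2.49 ± 0.42 (adjusted p 0.000567) and -2.54 ± 0.42 (adjusted p 0.000323). Sfrp1, a soluble Frizzled-related protein, read 8.15, 6.41 and 7.61 in basal, 5.77, 5.0 and 5.35 in Sca1-negative and 4.41, 4.37 and 4.24 in Sca1-positive luminal arrays. Its differences from the basal level were -2.02 ± 0.37 and -3.05 ± 0.37 (adjusted p 0.00129 and 1.06e-05).

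Sfrp2 did not share this pattern. Its log2 level was 7.22, 7.59 and 6.62 in control basal GFP-negative cells, 8.13, 7.99 and 7.10 in Sca1-negative luminal cells and 5.87, 5.88 and 5.87 in Sca1-positive luminal cells. The Sca1-positive arrays were thus the low ones. They differed from basal cells by -1.27 ± 0.37 (adjusted p 0.0281), while the Sca1-negative difference of 0.60 ± 0.37 had an adjusted p of 0.397. Sfrp4 and Dkk4 stayed at background, and Dkk1, Dkk2 and Sfrp5 had no group mean above 4.68.

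Of the 3 feedback targets, 2 were lower in both control luminal groups (Nkd1 and Axin2), and of the 4 effectors 2 in Sca1-negative (Tcf7l1 and Ctnnb1) and 1 in Sca1-positive cells (Tcf7l1). Nkd1, a Dishevelled-binding feedback inhibitor, read 7.73, 7.07 and 5.31 in control basal GFP-negative arrays and 4.71 to 5.0 in the 6 control luminal arrays. The basal arrays spread widely but did not overlap the luminal ones, and the differences were -1.80 ± 0.40 (adjusted p 0.00664) and -1.97 ± 0.40 (adjusted p 0.00235). Axin2, the feedback scaffold of the β-catenin destruction complex, averaged 5.46 in basal, 4.77 in Sca1-negative and 4.59 in Sca1-positive luminal cells, differences of -0.70 ± 0.18 and -0.88 ± 0.18 (adjusted p 0.017 and 0.00227). Nkd2 averaged 4.70, 4.30 and 4.25 in the same order and passed neither test (adjusted p 0.225 and 0.14).

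Tcf7l1, a mostly repressive Tcf factor, read 8.28, 6.97 and 6.29 in basal arrays, 5.38, 6.0 and 5.69 in Sca1-negative and 5.08, 5.12 and 5.13 in Sca1-positive luminal arrays. Its differences from basal cells were -1.49 ± 0.39 (adjusted p 0.0202) and -2.07 ± 0.39 (adjusted p 0.00123). Tcf7l2 was not called in either comparison, with means of 8.35 in basal, 8.89 in Sca1-negative and 7.86 in Sca1-positive luminal cells. Ctnnb1 differed by only -0.41 ± 0.09 in Sca1-negative cells (adjusted p 0.0062), from 10.07 to 9.66. Lef1 was at 3.93 to 4.24 in all 8 groups.

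Of the 77 other Wnt pathway genes looked up, 7 were higher and 16 lower in Sca1-negative, and 9 higher and 17 lower in Sca1-positive luminal cells than in basal cells. These counts stand beside 4.93% of all genes higher and 4.9% lower in Sca1-negative, and 7.35% higher and 5.77% lower in Sca1-positive cells. Of the 24 genes of Wnt secretion and the cell surface, 10 and 8 were lower and 0 higher. Porcn and Wls, which act in the lipid modification and export of Wnt proteins, were lower in Sca1-negative cells (-1.81 ± 0.46 and -1.21 ± 0.35, adjusted p 0.0164 and 0.0337). Neither was called in Sca1-positive cells. Lgr4, Lgr5 and Lgr6, the receptors of R-spondins, were among the lower genes: Lgr4 differed by -3.56 ± 0.32 and -3.33 ± 0.32, Lgr5 by -3.62 ± 0.39 and -3.71 ± 0.39, and Lgr6 by -2.22 ± 0.35 and -3.98 ± 0.35 (adjusted p for these differences from 2.11e-07 to 0.000295). The R-spondins themselves were not called in any comparison, and Rspo1 had group means of 4.4 to 4.77. Gpc4, a glypican, was lower in both luminal groups (-2.31 ± 0.27 and -2.54 ± 0.27), and Dkkl1, a Dickkopf-like secreted protein, was higher in both (3.17 ± 0.45 and 4.93 ± 0.45).

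**Figure D2:**
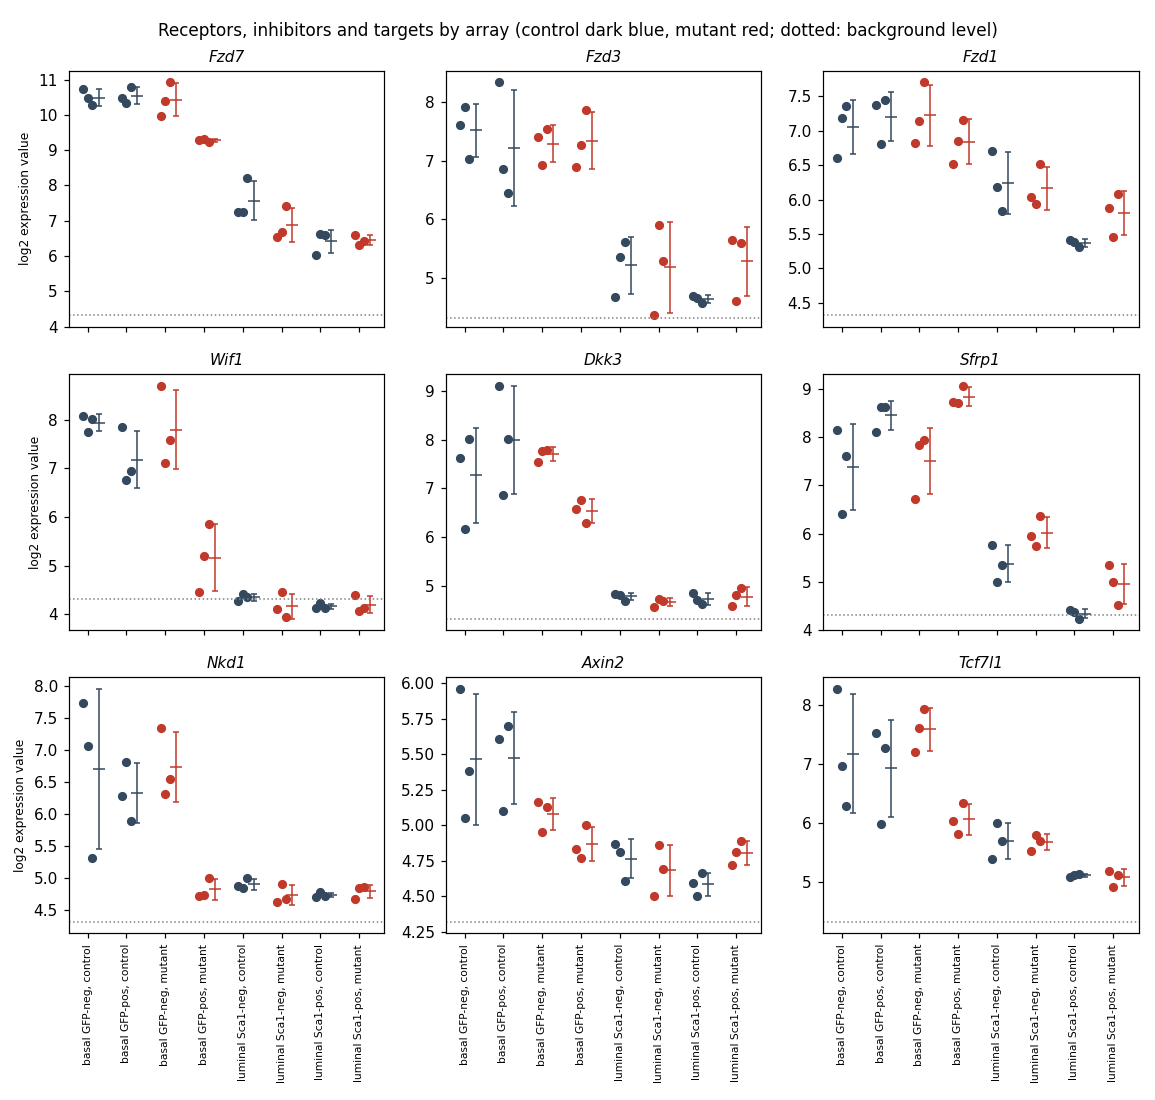
Log2 expression value of 9 receptors, inhibitors, targets and effectors in each array (points), with the mean and SD of each group (bars, n = 3) for control (dark blue) and mutant (red) cells; the dotted line is the background level of 4.32. All 9 genes are higher in control basal GFP-negative than in control luminal Sca1-positive cells, and Wif1 and Nkd1 drop in mutant basal GFP-positive cells.

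With limma fitted to only the groups compared, 6 of the 12 calls in Sca1-negative and 9 of the 14 in Sca1-positive luminal cells were kept. Some calls rested on single arrays: in Sca1-negative cells Axin2 was lost without basal array 1 (-0.45) or luminal array 3, Tcf7l1 without basal array 1 (-0.94), luminal array 1 or 3, Wnt10a without basal array 2 or luminal array 3, and Lrp6 without any of 5 arrays (all but basal array 3), with adjusted p from 0.05 to 0.21, and in Sca1-positive cells Sfrp2 was lost without any array but basal array 3 (adjusted p 0.0694 to 0.126).

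Among the ligands, Wnt10a and Wnt6 were lower, and Wnt5b, Wnt4 and Wnt7b higher, in 1 or both control luminal groups than in basal cells. Wnt10a read 6.17, 6.36 and 5.84 in control basal GFP-negative arrays and 4.80 to 5.23 in control luminal arrays, with differences of -1.14 ± 0.27 in Sca1-negative and -1.24 ± 0.27 in Sca1-positive cells (adjusted p 0.0112 and 0.00435). Wnt6 was lower in Sca1-positive luminal cells than in basal cells by a smaller step, from 5.06 to 4.5 (-0.56 ± 0.12, adjusted p 0.00435). Wnt5b was high in luminal Sca1-negative cells. Its 3 control arrays there read 6.97, 6.99 and 6.89, against 4.70, 4.86 and 5.44 in basal GFP-negative and 4.75, 4.76 and 4.93 in luminal Sca1-positive arrays. The Sca1-negative arrays stood clear of these 6 arrays, 1.95 ± 0.25 above basal (adjusted p 3.24e-05) on the log2 scale. Wnt4 and Wnt7b were higher in Sca1-positive luminal than in basal cells. Wnt4 read 5.98, 7.04 and 6.71 against 4.96, 5.48 and 5.24 (1.35 ± 0.26, adjusted p 0.00157), and Wnt7b 5.61, 6.80 and 6.42 against 4.62, 5.08 and 4.98 (1.38 ± 0.29, adjusted p 0.0029). For both genes the Sca1-negative cells had means in between, 5.85 and 5.59, that passed the test against neither control group.

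Within the luminal compartment, Sca1 divides cells that in this field are taken as hormone-receptor-rich (Sca1-positive) from alveolar progenitor-rich (Sca1-negative). In control mice 4 of the 51 genes differed between them, beside 3.69% of all genes (1.61% lower and 2.08% higher in Sca1-positive cells). Wnt5b was 4.41-fold lower in Sca1-positive cells (log2 difference -2.14 ± 0.25, adjusted p 4.93e-05) and Sfrp2 3.65-fold lower (-1.87 ± 0.37, adjusted p 0.00591). Fzd7 was 2.22-fold lower (-1.15 ± 0.28, adjusted p 0.025). Wnt5a was higher: its control arrays read 7.29, 7.07 and 8.15 in Sca1-positive and 6.28, 5.97 and 6.65 in Sca1-negative cells, without overlap (1.20 ± 0.29, adjusted p 0.0246). Fitted to the 2 groups alone, the comparison kept 2 calls. Leaving out single arrays ended the call of Fzd7 (Sca1-negative array 3 or Sca1-positive array 1, adjusted p 0.115 to 0.116) and of Wnt5a (Sca1-negative array 1 or 2, or Sca1-positive array 3, adjusted p 0.0705 to 0.139).

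In mutant mice, whose luminal cells were all sorted as GFP-positive, 4 genes differed between Sca1-positive and Sca1-negative cells, beside 3.66% of all genes (1.85% lower and 1.81% higher). Wnt5b was again the lower ligand, at 5.71, 4.91 and 5.21 against 6.12, 7.19 and 6.5 (-1.33 ± 0.25, adjusted p 0.00443). Sfrp2 was lower too, at 6.56, 5.95 and 7.32 against 8.13, 7.99 and 8.46 (-1.58 ± 0.37, adjusted p 0.0197). Wnt4 read 6.61, 6.61 and 6.71 in Sca1-positive and 5.12, 5.58 and 5.33 in Sca1-negative cells (1.30 ± 0.26, adjusted p 0.00726). Wnt7b read 6.31, 7.08 and 6.41 against 5.01, 5.28 and 5.45 (1.36 ± 0.29, adjusted p 0.0113). In control mice the same steps were 0.73 ± 0.26 for Wnt4 (adjusted p 0.167) and 0.69 ± 0.29 for Wnt7b (adjusted p 0.259), and a test of the difference between the genotypes' steps was not passed (adjusted p 0.796 and 0.778). Krt5 and the basal markers were higher in the mutant Sca1-negative group, as given above, and their part in these differences was not tested. The comparison fitted alone kept 1 call, and single arrays ended those of Wnt7b (Sca1-negative array 1 or Sca1-positive array 2, adjusted p 0.0642 to 0.0741) and Sfrp2 (Sca1-negative array 1 or 3, or Sca1-positive array 1 or 2, adjusted p 0.0523 to 0.118), so that 2 calls were left without Sca1-negative array 1 or Sca1-positive array 2.

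**Figure D3:**
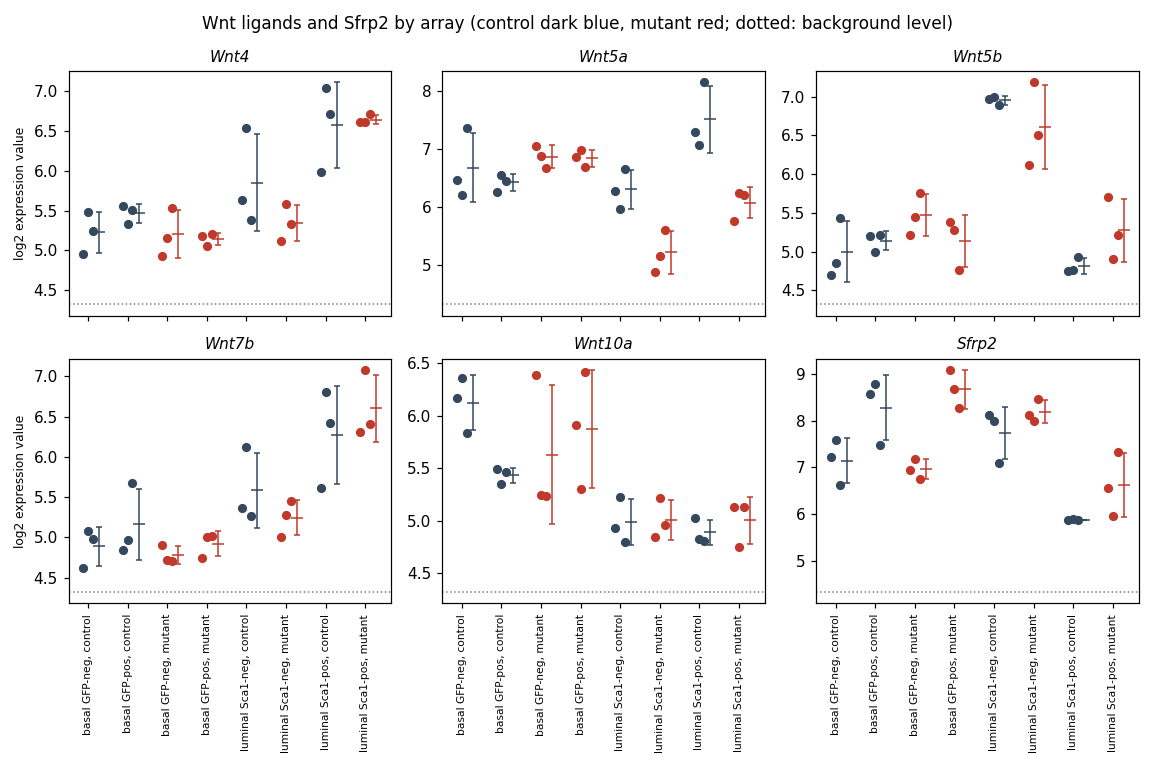
Log2 expression value of 5 Wnt ligands and Sfrp2 in each array (points), with the mean and SD of each group (bars, n = 3) for control (dark blue) and mutant (red) cells; the dotted line is the background level of 4.32. Wnt5b is high in the luminal Sca1-negative groups, Wnt4 and Wnt7b in the luminal Sca1-positive groups, and the Wnt5a arrays of each mutant luminal group lie below those of its control, a difference called in Sca1-positive cells (adjusted p 0.0194) and not in Sca1-negative cells (adjusted p 0.103).

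The mutant was compared with control in each gate. In luminal Sca1-positive cells Wnt5a was the 1 gene of the 51 called, beside 0.777% of all genes (0.376% lower and 0.401% higher). Its mutant arrays read 5.76, 6.23 and 6.21 and its control arrays 7.29, 7.07 and 8.15, so every mutant array lay below every control array. The log2 difference was -1.44 ± 0.29 (adjusted p 0.0194), 2.71-fold lower. In luminal Sca1-negative cells 0 of the 51 genes passed the adjusted threshold, beside 0.727% of all genes, while 4 had an unadjusted p under 0.05 (limma). Wnt5a was the nearest, at 4.88, 5.16 and 5.60 in mutant and 6.28, 5.97 and 6.65 in control arrays, again without overlap (-1.08 ± 0.29, adjusted p 0.103). A test of the difference between the 2 Wnt5a values was not passed (-0.35 ± 0.41, adjusted p 0.918), and the difference of mutant effects was called for 0 of the 51 genes (4 at an unadjusted p under 0.05), beside 0.161% of all genes. Wnt11, another non-canonical ligand, came nearest in that test (0.76 ± 0.21, adjusted p 0.291). The Wnt5a call in Sca1-positive cells was lost in the fit of the 2 groups alone (adjusted p 0.273) and without control array 3 or mutant array 1 (adjusted p 0.102 to 0.12). Krt5 was 3.29 ± 0.43 higher in mutant than in control luminal Sca1-negative cells (adjusted p 0.000572), and what basal cells or basal transcripts contribute to these values was not tested.

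In the basal compartment the GFP-negative cells of mutant and control mice differed in 0 of the 51 genes (2 at an unadjusted p under 0.05, limma), beside 0.0602% of all genes. Wif1 averaged 7.79 in mutant and 7.94 in control cells, Fzd7 10.43 and 10.49, and Nkd1 6.73 and 6.70.

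Whether the mutant effects differed between GFP-positive and GFP-negative basal cells was tested directly, as given below, and 0 of the 51 genes were called. Between mutant and control GFP-positive basal cells, 12 of the 51 genes were called, 2 higher and 10 lower, beside 12.6% of all genes (4.74% higher and 7.81% lower). The median difference over the 51 genes was -0.21 and over all genes -0.10. Wif1, Nkd1, Dkk3 and Fzd7 had the largest differences, all lower in the mutant. Lgr5, whose locus drives the Cre and which GFP marks in control cells, was itself lower, at 7.29, 6.08 and 5.53 in mutant against 10, 9.26 and 9.14 in control arrays (-3.16 ± 0.39, adjusted p 7.95e-05). Lgr5 was also lower than in control GFP-negative cells (-1.77 ± 0.39, adjusted p 0.0157), but not called against mutant GFP-negative cells (-1.04 ± 0.39, adjusted p 0.249). Control GFP-positive and GFP-negative cells were not called apart for Lgr5 (1.4 ± 0.39, adjusted p 0.0898). Its difference of mutant effects was called (-2.43 ± 0.56, adjusted p 0.0424). The part of the GFP gate in the Lgr5 values was not tested. Pik3ca was higher by 1.09 ± 0.21 (adjusted p 0.00435). For Pik3ca, mutant GFP-positive cells were not called against control GFP-negative cells (0.38 ± 0.21, adjusted p 0.394). Nor were they against mutant GFP-negative cells (0.64 ± 0.21, adjusted p 0.156).

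Wif1 read 4.46, 5.19 and 5.85 in mutant and 7.84, 6.76 and 6.94 in control GFP-positive arrays. The mutant values began at the background level, and every control array was higher (-2.01 ± 0.35, adjusted p 0.00196, 4.03-fold lower). Fzd7 read 9.29, 9.31 and 9.23 against 10.49, 10.35 and 10.80 (-1.27 ± 0.28, adjusted p 0.00862), 2.42-fold lower. Nkd1 read 4.72, 4.74 and 5.01 against 6.28, 6.82 and 5.89 (-1.51 ± 0.40, adjusted p 0.0243), which put the mutant arrays near the 12 luminal ones (4.63 to 5.0). Dkk3 read 6.57, 6.76 and 6.28 against 9.11, 6.87 and 8.01 (-1.46 ± 0.42, adjusted p 0.0341), and its control arrays spread over more than 2 log2 units. Axin2 read 4.83, 4.77 and 5.0 against 5.61, 5.10 and 5.70, a smaller drop (-0.60 ± 0.18, adjusted p 0.0379).

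The other 5 genes lower in the mutant were Wnt9a, Wnt8a, Lef1, Sfrp5 and Wnt10b, with differences of -0.26 to -0.48 between group means of 3.87 to 4.78. They lie around the background level, where the control GFP-positive arrays read higher for dim genes in general. Of the 2 higher genes, Ctnnb1 was higher by 0.38 ± 0.09 (9.98, 10.08 and 10.13 in mutant against 9.81, 9.60 and 9.63 in control arrays, adjusted p 0.0144) and Fzd5, a receptor, by 0.51 ± 0.16 (adjusted p 0.0426). The Ctnnb1 mean of 10.06 in mutant GFP-positive cells lay beside 10.07 in control and 10.14 in mutant GFP-negative cells, so only the control GFP-positive mean (9.68) was apart. Fzd3, Fzd1 and Sfrp1, which were also lower in Sca1-positive luminal than in basal cells, had differences of 0.13 ± 0.45, -0.36 ± 0.27 and 0.39 ± 0.37 that did not pass the test.

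Quantile normalization left 6 calls, leaving out dim genes 5, and fitting these 2 groups alone 1 (Fzd7), and leaving out 1 array left 5 (control array 1, mutant array 1 or mutant array 2) or 6 (control array 3 or mutant array 3) calls. Without control array 2 the count rose to 16, beside 20% of all genes. Fzd7 was called under every setting run and Wif1 in all but the fit of the 2 groups alone (adjusted p 0.112), while Nkd1 lost the call without control or mutant array 1 or 2, and Dkk3 and Axin2 without any array but control array 2 (adjusted p 0.0551 to 0.144). Ctnnb1 lost it with quantile normalization, and also without control or mutant array 3 (adjusted p 0.0534 to 0.0542 without these arrays). Wnt8a and Lef1, at background in all 8 groups, kept it without any single array of the 6. Both lost it in the fit of the 2 groups alone, and Lef1 also with quantile normalization. Both were among the dim genes left out, so that setting did not test them. Fzd5, Sfrp5, Wnt10b and Wnt9a each lost it without any of 4 to 6 arrays taken singly (adjusted p 0.0519 to 0.182). Without control array 1 the Dkk3 difference was -0.90, and without mutant array 2 that of Fzd5 was 0.28.

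Because of this difference of the control GFP-positive arrays, the mutant GFP-positive cells were also set against the other basal groups. Against GFP-negative cells of the same mutant glands, 5 of the 51 genes were called, 1 higher and 4 lower, beside 2.51% of all genes (1.77% higher and 0.737% lower). Wif1 read 8.70, 7.11 and 7.58 in the mutant GFP-negative arrays (-2.63 ± 0.35, adjusted p 0.000189), Nkd1 7.35, 6.31 and 6.54 (-1.91 ± 0.40, adjusted p 0.0131) and Fzd7 9.98, 10.38 and 10.92 (-1.15 ± 0.28, adjusted p 0.0319). Every GFP-positive array was lower than every GFP-negative one for these genes. Tcf7l1 read 6.04, 5.81 and 6.34 in GFP-positive and 7.21, 7.62 and 7.94 in GFP-negative arrays (-1.53 ± 0.39, adjusted p 0.0473). Sfrp2 was the higher gene, at 9.09, 8.67 and 8.26 against 6.94, 7.18 and 6.75 (1.71 ± 0.37, adjusted p 0.0147).

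Against the control GFP-negative cells, the mutant GFP-positive cells again had 5 genes called, beside 3.22% of all genes (2.29% higher and 0.928% lower). Wif1, Nkd1 and Fzd7 were lower, with log2 differences of -2.77 ± 0.35, -1.88 ± 0.40 and -1.21 ± 0.28 (adjusted p 0.000103, 0.0123 and 0.0189). Sfrp1, at 8.74, 8.72 and 9.07 against 8.15, 6.41 and 7.61, and Sfrp2, against 7.22, 7.59 and 6.62, were higher by 1.46 ± 0.37 and 1.53 ± 0.37 (adjusted p 0.0378 and 0.0266). Wif1, Nkd1 and Fzd7 were thus lower in mutant GFP-positive cells than in each of the other basal groups, though the 3 comparisons share the mutant GFP-positive arrays. The mean of the 14 luminal markers measured was 6.62 to 7.26 in the mutant GFP-positive, 6.92 to 7.25 in the mutant GFP-negative, 6.49 to 6.54 in the control GFP-negative and 6.45 to 6.89 in the control GFP-positive arrays, so that every mutant GFP-positive array lay above every control GFP-negative one. The mean of the basal markers was 10.36 to 10.45, 10.28 to 10.52, 10.36 to 10.59 and 10.14 to 10.32 in the same order. The part of luminal transcripts in these results was not tested. In control mice the GFP-positive and GFP-negative basal cells differed in 2 of the 51 genes, beside 1.25% of all genes (0.507% higher and 0.747% lower): Ctnnb1 was lower (-0.39 ± 0.09) and Wnt10b higher (0.31 ± 0.07) in GFP-positive cells (adjusted p 0.0451 for both). Sfrp1 and Sfrp2 differed there by 1.07 ± 0.37 and 1.13 ± 0.37 without passing the test (adjusted p 0.165 and 0.139).

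In these 3 comparisons the calls of few genes outlasted the loss of an array. Wif1 kept its call without any single array in both comparisons of mutant GFP-positive cells with GFP-negative cells, whereas each other call in them was lost without at least 3 of the 6 arrays taken singly (adjusted p 0.0503 to 0.179). Without mutant GFP-positive array 1 or 2, Wif1 alone was left in each, and the fits of the groups alone kept 0 of the 5 calls within the mutant (Dkk3 was called instead, adjusted p 0.0412), 2 of 5 against control GFP-negative cells and 0 of 2 within the control. Single arrays also cut the calls to 2 or 3 (mutant GFP-negative array 1, 2 or 3, mutant GFP-positive array 3, and control GFP-negative array 1 against the control), the Sfrp1 difference was 0.97 without control GFP-negative array 2, and both control calls were lost with quantile normalization, without dim genes, and without any of the control GFP-negative arrays or control GFP-positive array 3 (1 call was left without control GFP-positive array 1).

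**Figure D4:**
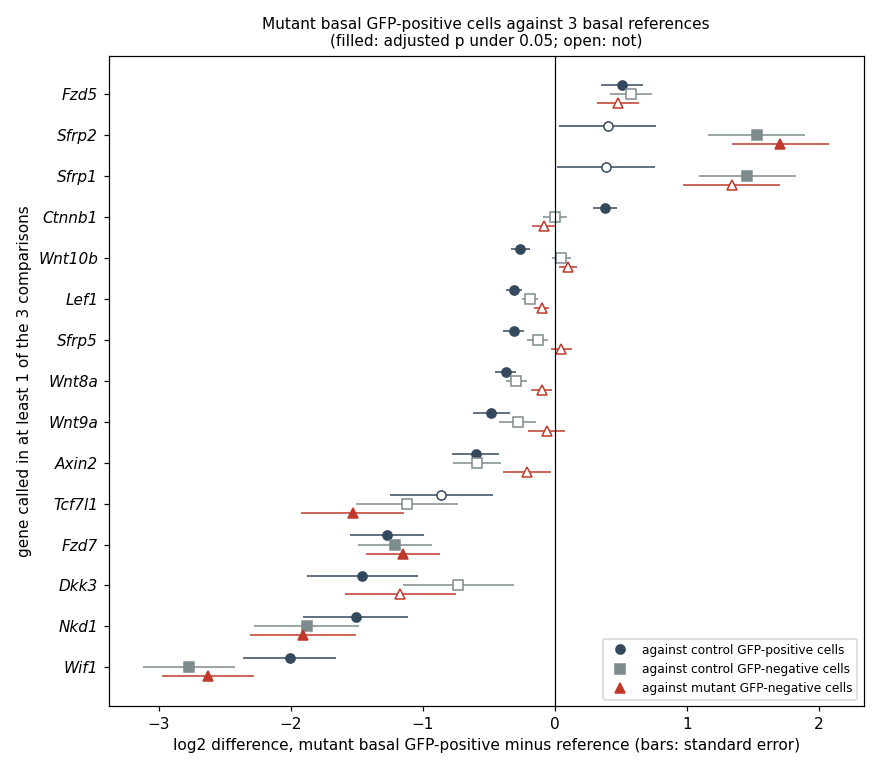
Log2 difference of mutant basal GFP-positive cells from 3 basal references (x axis, bars show the standard error) for the 15 genes called in at least 1 of the 3 comparisons; filled symbols have an adjusted p under 0.05. Wif1, Nkd1 and Fzd7 lie left of 0 with filled symbols against all 3 references, and the 5 genes near background are filled against control GFP-positive cells alone.

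Whether the mutant difference was larger in GFP-positive than in GFP-negative basal cells was tested directly. The difference of mutant effects was called for 0 of the 51 genes (8 at an unadjusted p under 0.05, limma), beside 1.07% of all genes. The nearest were Wif1 (-1.87 ± 0.50, adjusted p 0.0901), Dkk3 (-1.90 ± 0.60, adjusted p 0.154), Fzd7 (-1.21 ± 0.39, adjusted p 0.167) and Nkd1 (-1.54 ± 0.57, adjusted p 0.23). Wif1 passed without control GFP-positive array 2 (-2.08, adjusted p 0.0405), mutant GFP-negative array 2 (-2.21, adjusted p 0.0402) or mutant GFP-positive array 3 (-2.21, adjusted p 0.0385), and Dkk3 without control GFP-positive array 2 (-2.46, adjusted p 0.0158).

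Some genes of the set were lower both in mutant GFP-positive cells and in luminal cells. Of the 11 genes of the set lower in control luminal Sca1-negative than in basal GFP-negative cells and the 10 lower in mutant than in control basal GFP-positive cells, 5 were in both: Axin2, Dkk3, Fzd7, Nkd1 and Wif1. These 2 comparisons share no array. Over all genes, 79 were in both lists. This is 8.09% of the 977 lower in luminal cells, beside 7.81% of all genes lower in the mutant. It is 5.07% of the 1558 lower in the mutant, beside 4.9% of all genes lower in luminal cells, so over all genes the lists overlapped little beyond these shares. The same luminal list and the genes lower in mutant GFP-positive than in mutant GFP-negative cells, a comparison that also shares no array with it, had 4 genes of the set in both (Fzd7, Nkd1, Tcf7l1 and Wif1), which were all 4 of the set lower in the mutant comparison. Over all genes 82 were in both of these lists, 8.39% of the 977 (beside 0.737% of all genes) and 55.8% of the 147 lower in mutant GFP-positive cells (beside 4.9% of all genes). The mean of the 13 basal markers was 10.36 to 10.45 in mutant and 10.14 to 10.32 in control GFP-positive arrays. Of the 13, 1 was called higher and 0 lower in the mutant, with a median difference of 0.18 beside -0.1 over all genes. Group means in mutant and control were 11.24 and 9.49 for Lgals7, 11.92 and 11.60 for Krt5, 10.87 and 11.55 for Cnn1 and 8.86 and 9.82 for Oxtr. The Krt5 difference did not pass the test (0.32 ± 0.43, adjusted p 0.625, limma), and the lower means of Cnn1 and Oxtr were not called.

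Tcf factors bind a CTTTG core in Wnt-responsive elements. Promoters of some basal receptors and of some genes that fell in mutant GFP-positive cells are therefore shown. Every promoter shown holds the core, so they do not stand for all such genes. RefSeq promoter windows in build GRCm38.p6 matched 35 of the 51 genes. The 250 bases before the annotated start are printed 5′ to 3′ on the gene's strand, with each CTTTG, or its reverse complement CAAAG, in capitals. Fzd7 (chr1:59481897-59482146, plus strand), Tcf7l1 (chr6:72789046-72789295, minus strand) and Wif1 (chr10:121033754-121034003, plus strand) were lower in mutant GFP-positive than in mutant GFP-negative cells, and Fzd1 (chr5:4758217-4758466, minus strand) is a basal receptor that was not called there. All 4 windows lie upstream of the annotated gene.
Fzd7: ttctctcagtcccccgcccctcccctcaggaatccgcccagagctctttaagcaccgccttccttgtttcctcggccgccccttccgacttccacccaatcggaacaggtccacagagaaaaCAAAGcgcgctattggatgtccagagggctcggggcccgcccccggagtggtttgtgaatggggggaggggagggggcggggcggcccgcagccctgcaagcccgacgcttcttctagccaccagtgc
Tcf7l1: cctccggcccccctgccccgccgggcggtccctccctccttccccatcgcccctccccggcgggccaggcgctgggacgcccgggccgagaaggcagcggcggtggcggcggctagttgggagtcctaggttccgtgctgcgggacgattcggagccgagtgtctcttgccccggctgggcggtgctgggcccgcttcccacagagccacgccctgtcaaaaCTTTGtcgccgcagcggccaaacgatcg
Wif1: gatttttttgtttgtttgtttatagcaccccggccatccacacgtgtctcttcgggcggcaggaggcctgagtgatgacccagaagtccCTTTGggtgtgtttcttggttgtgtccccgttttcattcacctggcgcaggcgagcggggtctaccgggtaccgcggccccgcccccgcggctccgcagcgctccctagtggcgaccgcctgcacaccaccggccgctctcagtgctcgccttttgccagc
Fzd1: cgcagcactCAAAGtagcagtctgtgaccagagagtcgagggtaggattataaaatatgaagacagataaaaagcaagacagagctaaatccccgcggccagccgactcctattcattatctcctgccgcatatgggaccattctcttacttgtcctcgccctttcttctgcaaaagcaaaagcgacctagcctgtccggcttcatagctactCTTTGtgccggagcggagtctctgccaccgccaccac

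The core occurred once in the windows of Fzd7, Tcf7l1 and Wif1, at 128, 28 and 161 bases before the start, and at 241 and 37 bases in that of Fzd1. A window with the core was found for 15 of the 35 genes (20 of 43 windows), against 48.6% of all 32851 windows of the same length, searched on both strands. All genes whose windows are shown were among the 15, as was Lef1. The basal receptor Fzd3 was not, nor were Axin2, Dkk3 and Nkd1, which fell in mutant GFP-positive cells. Whether these genes had no window or a window without the core is not given here. Whether the core was more frequent in genes that fell was not tested. The longer form, CTTTGAA or CTTTGAT, which contains the core, was found for Dkk1, Wnt11 and Wnt5b (3 of 43 windows), against 7.48% of all windows. These matches describe letters in the window and say nothing of binding.

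Among the 77 other pathway genes, 13 were higher and 8 lower in mutant than in control basal GFP-positive cells, beside 4.74% of all genes higher and 7.81% lower. Prickle2, a planar polarity protein, read at background in the other 7 groups (3.91 to 4.12) and averaged 6.60 ± 0.70 (SD, n = 3) in mutant GFP-positive cells, a difference of 2.48 ± 0.22 (adjusted p 1.23e-06). It was also 2.58 ± 0.22 above mutant GFP-negative cells (adjusted p 8.03e-07), and its difference of mutant effects passed the test (2.55 ± 0.31, adjusted p 0.000184). The secreted antagonists Sostdc1 and Igfbp4 were higher, unlike Wif1 and Dkk3: Sostdc1 by 4.13 ± 0.75 (adjusted p 0.0025) and Igfbp4, a binding protein of insulin-like growth factors that can also inhibit Wnt, by 3.25 ± 0.40 (adjusted p 7.92e-05). Sostdc1 averaged 6.08 ± 2.00 (SD, n = 3) in the control GFP-positive arrays. Mutant GFP-positive cells were not called for Sostdc1 against either GFP-negative group, and for Igfbp4 only against control GFP-negative cells (1.91 ± 0.40, adjusted p 0.0107). The difference of mutant effects, which also uses the control GFP-positive arrays, passed the test for both (4.94 ± 1.06 and 2.80 ± 0.57, adjusted p 0.0271 and 0.0204). Within mutant glands, GFP-positive cells had higher Sox9 (1.35 ± 0.15) and Tle1 (0.90 ± 0.21), a co-repressor of Tcf factors, and lower Ryk (-1.33 ± 0.31), a Wnt receptor, than GFP-negative cells (adjusted p 2.84e-05, 0.0241 and 0.0288).

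Between mutant and control luminal cells 1 of the 77 genes was called in the Sca1-negative gate and 2 in the Sca1-positive gate, beside 0.727% and 0.777% of all genes. Id2 was higher in mutant Sca1-negative cells (1.47 ± 0.33, adjusted p 0.0484), and Cd44 and Apcdd1, a membrane-bound Wnt inhibitor, were higher in mutant Sca1-positive cells (1.73 ± 0.33 and 0.96 ± 0.20, adjusted p 0.0128 and 0.0291). In basal GFP-negative cells 0 of the 77 were called (6 at an unadjusted p under 0.05, limma), beside 0.0602% of all genes.

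The remaining genes of the set had no call in any of the 11 comparisons of a pair of groups. They comprised Wnt3a, Wnt9b, Wnt11, Wnt16 and the 6 background ligands other than Wnt8a, the 4 R-spondins, Fzd2, Fzd4, Fzd6, Fzd8, Fzd9, Fzd10, Lrp5, Dkk1, Dkk2, Dkk4, Sfrp4, Tcf7l2 and Nkd2. Of these, Wnt11, Fzd2 and Tcf7l2 were called by the F test over the 8 groups. Wnt11 ran from 4.78 in mutant luminal Sca1-negative to 5.50 in control basal GFP-positive cells (adjusted p 0.0169), and Fzd2 from 4.4 in control luminal Sca1-negative to 5.78 in mutant basal GFP-positive cells (adjusted p 0.0491). Tcf7l2 ran from 7.74 in mutant luminal Sca1-positive to 9.52 in mutant basal GFP-positive cells (adjusted p 0.00662). Its Sca1-positive luminal cells lay 1.03 ± 0.33 and 1.06 ± 0.33 below Sca1-negative ones in control and mutant, differences that missed the threshold (adjusted p 0.104 and 0.0968).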

How the data were processed

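Expression was measured on 24 arrays, 3 in each of 8 sorted groups; groups and replicate numbers came from the sample titles. Values were deposited on a log2 scale, 1 per probe set and array. The software affy is named, with no version, per the submitters' processing notes; background correction, normalization and summarization are not given in the sources used here, and the log2 scale was taken from the values. The number of arrays limits the precision, and p-values measure the spread between pools.

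Of 34760 probe sets, 21640 with 1 symbol in the platform annotation were kept (21553 matched RefSeq by Entrez ID; 13120 with none or several were left out), giving 19937 genes; of several probe sets of a symbol, the one with the highest mean was used. One limma fit (limma 3.58.1, R 4.3.3) estimated 8 group means with 16 residual degrees of freedom (lmFit, eBayes). There were 11 comparisons of 2 groups, 2 differences of mutant effects and an F test, all two-sided except the F test, adjusted by Benjamini-Hochberg over all genes within each and called at an adjusted p under 0.05. A fold is 2 to the power of the absolute log2 difference. The script was tested on simulated data. The genes and lists were chosen with earlier results of these data known. Genes called between groups, and a set of well-known genes, are named. In each comparison up to 6 called genes with the smallest p get every array. Of other pathway genes up to 4 with the smallest p are named, and Lgr5. A gene named in 1 comparison may be given in others, and Porcn and Wls were added outside this rule. Alternatives were quantile normalization, leaving out genes with a mean under 4.32, the mean of probe sets, a replicate block, only the groups compared, leaving out the control basal GFP-positive arrays, and leaving out each array. Replicate numbers were not used as pairs in the main fit. In none of the 11 comparisons did every same-numbered pair correlate above 0.1, though in 4 each array correlated best with its own number, so a weak shared sorting effect remains possible.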

Additional observations from a re-analysis of the deposited data

How the results depend on the processing

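Of the 59 calls between groups, 18 were kept under every setting run and 0 changed direction. Averaging probe sets kept 59 of 59 and leaving out the control basal GFP-positive arrays 45 of the 45 that do not use them. Quantile normalization kept 50 of 59, leaving out dim genes 50 of 57, and fitting only the groups compared, with fewer arrays to estimate the spread, 21 of 59. For the mutant against control in basal GFP-positive cells, the 12 calls became 6 with quantile normalization, 5 without dim genes and 1 with only the groups compared; the cause was not tested for the first pair. For GFP-positive against GFP-negative control cells, the 2 calls became 0 with quantile normalization, 0 without dim genes, 0 with the replicate block and 0 with only the groups compared. With only the groups compared, calls numbered 0 instead of 1 for the mutant in luminal Sca1-positive cells, 1 instead of 5 for GFP in mutant cells, 6 instead of 12 for luminal Sca1-negative against basal cells, 2 instead of 4 and 1 instead of 4 for Sca1 in control and mutant cells, and 2 instead of 5 for mutant GFP-positive against control GFP-negative cells.

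Leaving out 1 array at a time gave 5 to 16 calls for the mutant in basal GFP-positive cells (12 with all arrays), 0 to 0 in basal GFP-negative and in luminal Sca1-negative cells, 0 to 1 in luminal Sca1-positive cells, 0 to 3 for GFP in control and 1 to 3 in mutant cells, 8 to 12 and 13 to 15 for luminal Sca1-negative and Sca1-positive against basal cells, 3 to 5 and 2 to 4 for Sca1 in control and mutant cells, 1 to 4 for mutant GFP-positive against control GFP-negative cells, 0 to 2 and 0 to 0 for the basal and luminal differences of mutant effects, and 20 to 26 for the F test (24 with all arrays). Samples share only a replicate number: same-numbered samples correlated from -0.08 to 0.18, each best with its own number in 4 of 11 comparisons, and the replicate block kept 55 of the 59 calls; it lost Lrp6 in luminal Sca1-negative against basal cells (adjusted p 0.0572), Tcf7l1 for GFP in mutant cells (0.0605), and Ctnnb1 and Wnt10b for GFP in control cells (0.0533 and 0.06). Genes near the background level of 4.32 are limited by signal, not by the number of arrays alone.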
